A study of Mus musculus with 13 samples.

Results

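The genes examined here build and carry the sugar structures that selectins bind. They comprise 7 of the 24417 named genes in both count tables, which are *Selplg*, *Gcnt1*, *B4galt1*, *St3gal4*, *St3gal6*, *Fut4* and *Fut7*, and all 7 were matched by symbol and passed the filter on low counts. The family was chosen by knowledge of its enzymes together with earlier results from these same libraries, and which contrasts entered that choice is not recorded. Fold changes, adjusted p-values and calls of its members are therefore a description and support nothing beyond the values themselves.

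Selectins are lectins on inflamed endothelium, platelets and leukocytes that catch passing leukocytes and let them roll before they enter tissue. Their best known ligand on T cells is P-selectin glycoprotein ligand, encoded by *Selplg*, which binds only after its O-linked glycans have been branched, extended, sialylated and fucosylated to the sialyl Lewis x structure. In conventional T cells, activation and effector differentiation are known to induce the branching enzyme and fucosyltransferase VII, and Treg cells also use such ligands to reach inflamed skin.

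Bulk RNA-seq was performed on T cells sorted from spleen and lymph nodes of C57BL/6 mice, in 2 experiments with 13 libraries in 5 groups. The first used male mice, all given 4-hydroxytamoxifen (4-OHT) at 14 days of age and analyzed 7 days later, at day 21. Control Treg cells (n = 3) came from healthy Foxp3DTR-GFP/yCd4creERT2 mice and rescued Treg cells (n = 3) from Foxp3LSL/yCd4creERT2 mice, in which 4-OHT lets Cre excise a Thy1.1-STOP cassette and so restores *Foxp3* expression during autoimmune disease. Male Treg “wannabes” (n = 2), cells that transcribe the blocked *Foxp3* locus but make no *Foxp3* protein, came from Foxp3LSL/yCd4wt mice, which have no recombinase and remain sick. The second experiment used female mice aged 9 to 11 weeks that all received diphtheria toxin 7, 5, 3 and 1 days before analysis. Resting “wannabes” (n = 3) came from Foxp3LSL/WTCd4wt mice, whose wild-type Treg cells the toxin spares, and activated “wannabes” (n = 2) from Foxp3LSL/DTRCd4wt mice, whose Treg cells it depletes. The series' design text gives these 2 numbers the other way round, whereas titles, genotype labels, column names and methods give them as here. The *Cd4*-driven recombinase acts in CD4-expressing T cells at large and not in Treg cells alone, and control and rescued Treg cells carry different *Foxp3* alleles. Male “wannabes” differ from both Treg groups in *Foxp3* and in the Cre allele, and from the controls also in disease, which cannot be told apart here.

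Total counts on named genes lay between 25556783 and 36659638 per male library and between 28059854 and 31462226 per female library. *Foxp3*, the targeted gene, followed the labels, with 28381, 29816 and 36405 normalized counts in the rescued Treg libraries against 2762 and 3273 in the male “wannabes”. The control Treg libraries held 5479, 7061 and 8264, the resting “wannabes” between 1999 and 2230, and the activated “wannabes” 1568 and 1728. Normalized counts are reads per gene scaled by edgeR's TMM library size within each experiment. Levels are compared between genes only per length. Across experiments they are set side by side only as CPM per length, which still carry a TMM scaling estimated separately in each experiment. The 6 T cell markers measured, *Cd3d*, *Cd3e*, *Cd3g*, *Cd4*, *Cd2* and *Cd5*, summed to between 3692 and 5793 CPM (the usual scaling of reads to library size) in every library. Markers of other cells summed to at most 44.1 CPM for B cells, 27.8 for CD8 T cells, 18.4 for erythroid cells, 10.8 for myeloid cells, 8.77 for NK cells and 8.04 for dendritic cells. By the study's methods the female libraries came from separate mice and the male ones were biological replicates. In bulk samples fewer cells of a type and less RNA per cell cannot be told apart.

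Because *Fut7* and *Gcnt1* had the largest called changes among the 7 genes, the bases just upstream of their outermost RefSeq starts are shown. They come from RefSeq promoters on GRCm38.p6, where 6 members had an entry, and each run of 250 bases is printed 5′ to 3′ on the gene's strand. *Fut7*, which encodes fucosyltransferase VII, lies on chromosome 2 from 25423267 to 25426374 on the plus strand in GENCODE, whose start lies downstream of the RefSeq start, and the printed stretch is chr2:25422992-25423241. *Gcnt1*, which encodes the core 2 branching enzyme, lies on chromosome 19 from 17326141 to 17372844 on the minus strand, and the printed stretch is chr19:17372845-17373094. Neither stretch overlaps an exon or intron in GENCODE release M21. Capitals mark the only matches to any of 4 motifs searched on both strands.
Fut7: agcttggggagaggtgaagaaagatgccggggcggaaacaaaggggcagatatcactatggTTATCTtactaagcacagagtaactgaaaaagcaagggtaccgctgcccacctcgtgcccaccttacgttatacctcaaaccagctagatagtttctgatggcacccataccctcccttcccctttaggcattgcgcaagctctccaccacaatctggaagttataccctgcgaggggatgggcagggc
Gcnt1: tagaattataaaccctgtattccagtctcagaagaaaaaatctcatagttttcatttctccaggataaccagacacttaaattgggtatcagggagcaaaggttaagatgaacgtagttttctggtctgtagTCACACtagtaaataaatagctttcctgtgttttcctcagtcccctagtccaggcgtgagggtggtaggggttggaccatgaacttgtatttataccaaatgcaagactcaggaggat

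The motifs searched were GTGTGA for T-box factors, then AGATAA for GATA factors, TTCNNNGAA for STAT proteins and finally CACCTG for proteins that bind E-boxes. The *Fut7* stretch held a GATA match on the opposite strand, from 189 to 184 bases upstream of the RefSeq start, and GATA matches occurred in 9.99% of 32851 promoters of the same length. The *Gcnt1* stretch held a T-box match on the opposite strand, from 118 to 113 bases upstream, and such matches occurred in 12.3% of promoters. The STAT and E-box letters, found in 7.02% and 17.2% of promoters, matched neither printed stretch. RefSeq gives further starts for both genes, which are not printed. Those of *Gcnt1* had E-box matches from 73 to 68 and from 130 to 125 bases upstream, and that of *Fut7* had no match. The G and C content was 52.4% for *Fut7* with 7 CpG pairs and 40.4% for *Gcnt1* with 2. No binding was measured here, and these matches are descriptions of letters only.

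Activation of “wannabes” in Treg-depleted mice came with higher transcript levels of the branching enzyme and of fucosyltransferase VII, while log2 fold changes of the scaffold, the galactosyltransferase and both sialyltransferases lay between −0.37 and 0.23 and were not called. *Fut7* was 14.7-fold higher in activated than in resting “wannabes” (95% confidence interval 10.2 to 21.2) and *Gcnt1* 8.97-fold higher (6.32 to 12.7). These were the 2 members called of 7, both higher, where 22.5% of the 13166 genes tested were called, 11.3% higher and 11.2% lower. A gene was called at an adjusted p under 0.05 in edgeR's quasi-likelihood F test, with p-values corrected by Benjamini and Hochberg's method over every gene tested. Errors of log2 fold changes are standard errors (SE), given with that test's adjusted p.

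*Fut7* places fucose on the sialylated chain and so completes sialyl Lewis x. It had 139, 205 and 124 normalized counts in the resting libraries and 2462 and 2139 in the activated ones. The lowest activated library thus lay far above the highest resting library. The change was 3.88 on the log2 scale (SE 0.22, edgeR adjusted p = 0.000291), which ranked *Fut7* 94th by size of rise among the 1489 genes called higher.

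*Gcnt1* adds the branch on which the selectin-binding structure is built. Its normalized counts were 384, 230.3 and 264 in the resting libraries against 2625 and 2623 in the activated ones. The activated libraries were nearly equal, and the groups did not overlap. At 3.16 on the log2 scale (SE 0.21, edgeR adjusted p = 0.000465), *Gcnt1* ranked 162nd among the genes called higher. Both calls held in all 5 fits that left out a library.

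*Selplg*, the scaffold, had 32688, 38469 and 34120 normalized counts in resting and 42370 and 40152 in activated libraries. The groups did not overlap, yet the difference was small, with a log2 fold change of 0.23 (SE 0.09) that was not called (edgeR adjusted p = 0.105) but was called without resting replicate 2, at 0.30. *B4galt1*, which adds the galactose that extends the branch, lay between 5438 and 5784 in resting and at 5420 and 5467 in activated libraries. The log2 fold change was −0.05 with a 95% interval from −0.22 to 0.12.

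*St3gal4*, which caps chains with sialic acid, lay between 1035 and 1387 normalized counts in resting and at 1204 and 1225 in activated libraries, inside the resting range. Its log2 fold change of 0.02 had a 95% interval from −0.31 to 0.35. *St3gal6*, a second sialyltransferase of the same linkage, had 578, 1154 and 670.1 in resting and 685 and 552 in activated libraries, which overlapped (log2 fold change −0.37, interval −1.10 to 0.36). That fold change lay between −0.55 and −0.01 when a library was left out. *Fut4*, another fucosyltransferase able to make Lewis x structures, stayed at 27.4 normalized counts or below in all 5 female libraries, and its log2 fold change of 1.37 had an interval from −0.47 to 3.21. It was 0.69 without activated replicate 1 and 2.25 without resting replicate 1, and was not called in either fit.

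**Figure D1:**
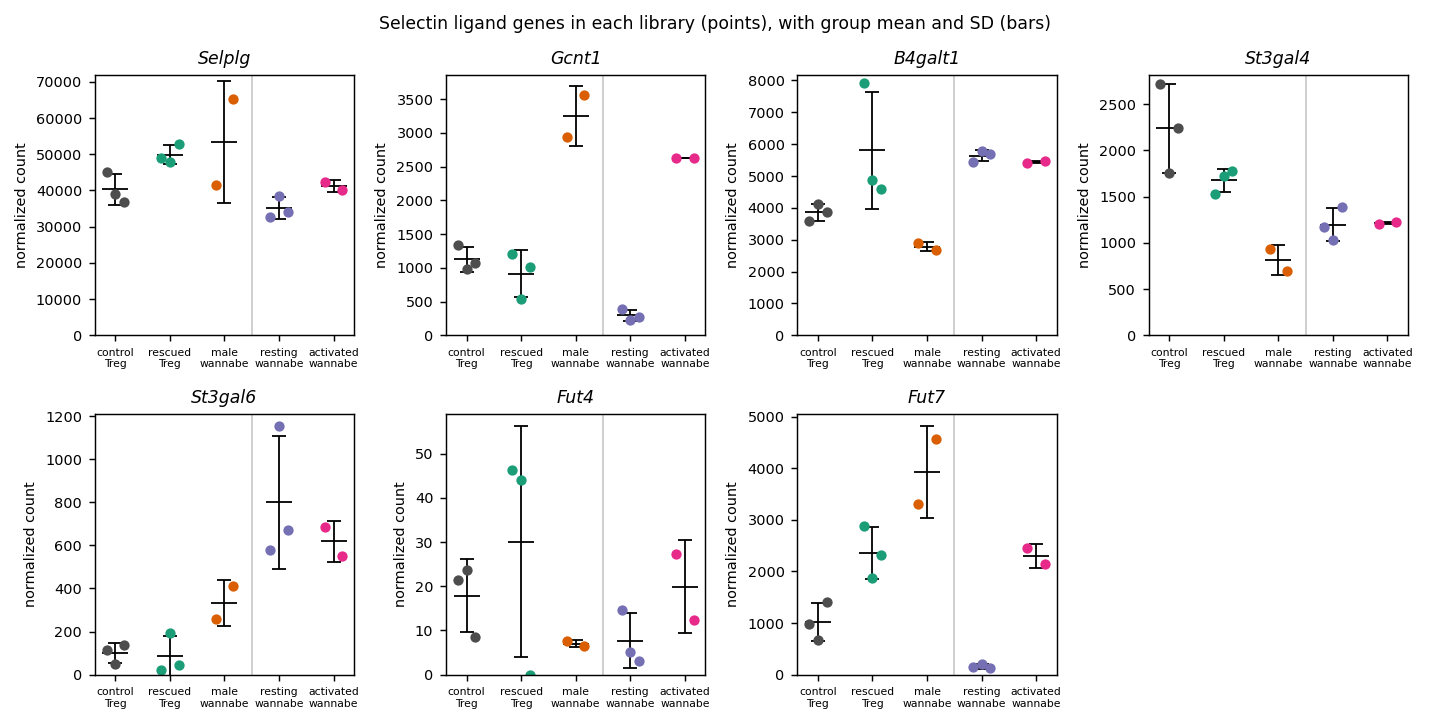
Normalized counts (y axis, linear from 0) of the 7 genes in each library, with 1 point per library and the group mean and SD as bars; the grey line separates the male experiment on the left from the female one on the right, and the experiments were scaled separately. In the female experiment *Fut7* and *Gcnt1* were at 205 or below and 384 or below in resting “wannabes”, against at least 2139 and 2623 in activated ones.

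B cell markers moved with activation too: the 5 markers summed to between 9.8 and 12.1 CPM in resting and between 22.5 and 24.7 CPM in activated libraries. Myeloid markers summed to between 1.31 and 4.41 CPM in resting and 3.63 and 7.55 CPM in activated libraries, with *Cd14*, *S100a8* and *S100a9* at 0 in the latter. Dendritic cell markers lay between 3.296 and 4.395 CPM in resting and between 6.75 and 8.04 CPM in activated libraries. The CD8 T cell markers lay between 9.72 and 13.9 CPM in resting and between 14.2 and 15.9 CPM in activated libraries. Of all these markers edgeR called only *Cd79b*, higher in activated libraries. The cells had been sorted, in 2 rounds, as TCRβ+CD4+CD8-NK1.1-, a gate meant to leave these other cells out. Their part in the rise of *Fut7* and *Gcnt1* was not tested.

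In the male mice, rescued Treg cells had more *Fut7* transcript than control Treg cells, by 2.31-fold (95% interval 1.52 to 3.51), and this was the only call among the members. That is 1 of 7, higher, where 2.3% of 14925 genes were called, 1.43% higher and 0.864% lower. *Gcnt1*, which differed between resting and activated “wannabes”, gave a log2 fold change of −0.30 with an interval from −0.92 to 0.32. That value lay between −0.55 and −0.01 when a library was left out.

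For *Fut7* the control libraries held 985, 673 and 1404 normalized counts and the rescued libraries 2876, 1869 and 2321. Every rescued library exceeded every control library, and the log2 fold change was 1.21 (SE 0.28, edgeR adjusted p = 0.048). Among the 214 genes called higher it ranked 129th by size. The call was lost without control replicate 1 or 2 or without any one of the 3 rescued libraries, where the log2 fold change lay between 0.98 and 1.36, and the adjusted p ranged from 0.00111 to 0.182 over all alternatives.

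The 4 NK cell markers summed to between 0.612 and 1.38 CPM in control and between 3.47 and 8.34 CPM in rescued libraries, with *Klra8* at 0 in both and *Ncr1* at 0 in control, and cells with the NK1.1 marker had been gated out. The 6 dendritic cell markers summed to between 0.892 and 1.93 CPM in control and between 2.17 and 3.72 CPM in rescued libraries, with *Clec9a* and *Siglech* at 0 in both. Their part in the higher *Fut7* was not tested.

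*Gcnt1* had 1332, 976 and 1076 normalized counts in control and 1207, 531 and 1007 in rescued Treg libraries, and the groups overlapped. *Selplg* had 44986, 39078 and 36744 in control and 48960.3, 47822 and 52927 in rescued libraries. Rescued libraries were all higher for *Selplg*, with a log2 fold change of 0.31 (interval −0.05 to 0.67) that was not called.

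*B4galt1* had 3596, 4136 and 3868 normalized counts in control and 7922, 4886 and 4599 in rescued Treg libraries. Rescued replicate 1 stood well above the other rescued libraries, although the groups did not overlap. The log2 fold change was 0.59 (SE 0.21, edgeR adjusted p = 0.183) and fell to 0.29 without that library. It was not called in either fit.

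*St3gal4* lay between 1758 and 2716 normalized counts in control and between 1528 and 1775 in rescued Treg libraries, so the groups overlapped by little (log2 fold change −0.42, interval −0.89 to 0.05). *St3gal6* lay between 48.3 and 139 in control and between 21.7 and 194 in rescued libraries. Its log2 fold change of −0.22 turned to between 0.10 and 0.24 when control replicate 3 or rescued replicate 1 or 3 was left out, so no direction can be given. *Fut4* had 21.5, 23.7 and 8.49 in control and 46.3, 44.1 and 0 in rescued libraries, and its log2 fold change of 0.75 had an interval from −2.57 to 4.06. It lay between 0.29 and 1.33 when a library was left out and turned to −0.27 with the replicate number as a block, so no direction can be given for *Fut4* either.

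Male “wannabes” from diseased mice held more *Fut7* and *Gcnt1* transcript and less *St3gal4* than healthy control Treg cells. Against the “wannabes”, control Treg cells were 3.85-fold lower in *Fut7* and 2.88-fold lower in *Gcnt1* and 2.74-fold higher in *St3gal4*. These 3 of 7 members were called, 1 higher and 2 lower in control Treg cells, where 16.2% of genes tested were called, 9.92% higher and 6.27% lower. All 3 calls held in each of the 8 fits that left out a male library. In the “wannabes” the NK cell markers summed to between 4.87 and 8.77 CPM and the dendritic cell markers to between 4.203 and 7.36 CPM, above control Treg libraries, while *Ncr1*, *Klra8*, *Itgax*, *Clec9a* and *Siglech* were at 0. Myeloid markers summed to between 0.919 and 1.66 CPM there and to between 4.31 and 10.8 CPM in control Treg libraries, and the erythroid marker *Hba-a1* had 254 and 51.7 normalized counts in “wannabes” against between 8.49 and 25.7 in control libraries. Of these markers edgeR called *Hba-a1* and the NK cell marker *Klrb1c* lower and the myeloid marker *Itgam* higher in control Treg cells. The part of these markers in the differences was not tested.

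The “wannabe” libraries had 3302 and 4563 normalized counts of *Fut7*, above the highest control library at 1404. The log2 fold change of control over “wannabe” was −1.95 (SE 0.30, edgeR adjusted p = 0.00205). *Gcnt1* stood at 2936 and 3562 in the “wannabes”, well above the highest Treg library of either group, which held 1332. Its log2 fold change was −1.53 (SE 0.31, edgeR adjusted p = 0.0074).

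*St3gal4* went the other way, with 932 and 699 normalized counts in the “wannabes” against at least 1758 in control Treg libraries, a log2 fold change of 1.46 (SE 0.25, edgeR adjusted p = 0.0036). The second sialyltransferase, *St3gal6*, had 257 and 409 in the “wannabes”, above every Treg library, but its counts spread widely and the log2 fold change of −1.74 had an interval from −3.51 to 0.04. *Selplg* had 41410 and 65190 in the “wannabes”, and these libraries lay on both sides of control replicate 1. Its log2 fold change of −0.40 (interval −0.80 to −0.01) was not called with adjustment over all genes. The value was −0.70 without male “wannabe” replicate 1 and −0.09 without male “wannabe” replicate 2.

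Rescued Treg cells, compared with the same male “wannabes”, were lower in *Gcnt1* by 3.55-fold and higher in *B4galt1* by 2.09-fold and in *St3gal4* by 2.05-fold. These were again 3 of 7 members called, 2 higher and 1 lower in rescued Treg cells, where 14.1% of genes were called, 10% higher and 4.06% lower. Since both comparisons share the “wannabe” libraries, their values stand side by side and give no independent view. Myeloid markers summed to between 2.57 and 8.18 CPM in rescued libraries, above the “wannabes”, and the dendritic cell markers given above lay below them, and the part of either in these differences was not tested.

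*Gcnt1* gave a log2 fold change of −1.83 (SE 0.31, edgeR adjusted p = 0.00278) and was called in all 8 fits without a library. *B4galt1* had 2887 and 2676 normalized counts in the “wannabes”, below every Treg library, and gave 1.06 (SE 0.24, edgeR adjusted p = 0.0126). *St3gal4* gave 1.04 (SE 0.25, edgeR adjusted p = 0.0169), with every rescued library above both “wannabes”. Without male “wannabe” replicate 2 neither *B4galt1*, at 0.96, nor *St3gal4*, at 0.80, was called.

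*Fut7* of rescued Treg cells lay below both “wannabe” libraries, with a log2 fold change of −0.74 (interval −1.40 to −0.08) that was not called (edgeR adjusted p = 0.131). By group mean, male “wannabes” came first for *Fut7* with 3932 ± 891 (SD, n = 2), then rescued Treg cells with 2355 ± 504 and control Treg cells with 1021 ± 367 (SD, n = 3), and no neighbouring groups overlapped. For *Gcnt1* the means in the same order were 3249 ± 443 (SD, n = 2), 915 ± 347 and 1128 ± 184 (SD, n = 3), and both Treg groups overlapped. *Selplg* differed by −0.09 on the log2 scale between rescued Treg cells and “wannabes”, a value that reached 0.23 without male “wannabe” replicate 2. *St3gal6* gave −1.95 (interval −3.74 to −0.17) and was not called, but was called at −3.30 without rescued replicate 2.

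**Figure D2:**
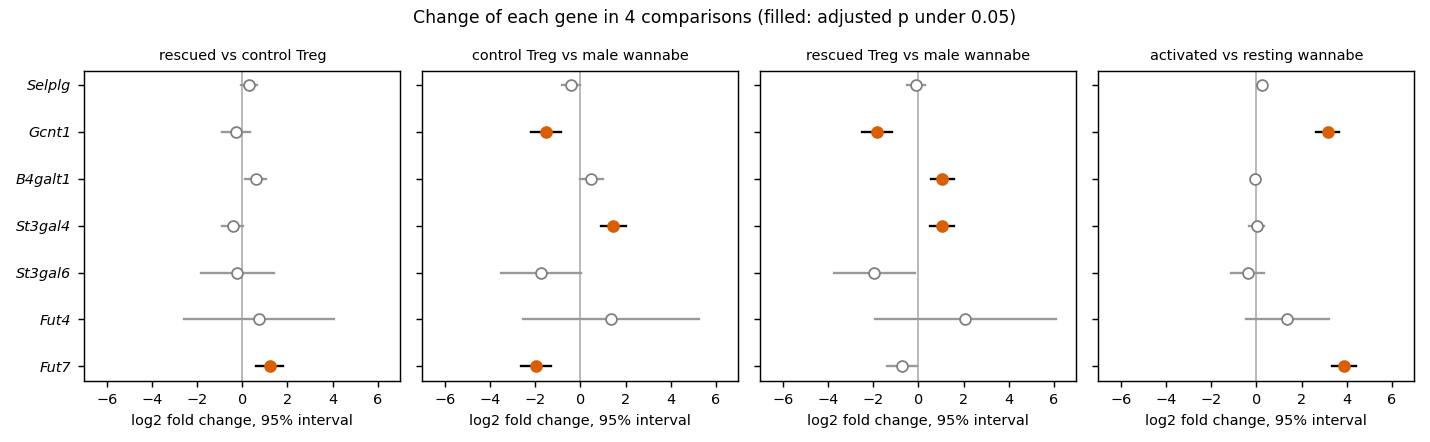
Log2 fold change (x axis) of each of the 7 genes in the 4 comparisons, with the 95% interval as a line and filled points where edgeR's adjusted p was under 0.05. *Fut7* and *Gcnt1* had the largest called changes, 3.88 and 3.16 in activated over resting “wannabes”, and *Fut4* had the widest intervals.

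A fit of all 13 libraries set the change of rescued over control Treg cells against that of activated over resting “wannabes”. Of the members, 2 of 7 differed between the experiments, both with the smaller change in the Treg cells, and 1.53% of 15201 genes were called for this difference, 0.803% higher and 0.73% lower. The difference of log2 changes was −3.45 for *Gcnt1* (SE 0.41, edgeR adjusted p = 0.00119) and −2.66 for *Fut7* (SE 0.41, edgeR adjusted p = 0.00697). Both were called in all 13 fits that left out a library. *B4galt1* gave 0.65 (interval 0.09 to 1.21), or between 0.35 and 0.81 when a library was left out, and was not called. The experiments also differ in sex, age, alleles and treatment, which cannot be told apart from the populations.

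*Gcnt1* competes for the same core structure with *St3gal1*, a sialyltransferase that caps it and blocks branching. The ratio of their levels per length was 0.341, 0.306 and 0.277 in control and 0.382, 0.167 and 0.260 in rescued Treg libraries. In male “wannabes” it was 1.14 and 1.11. In female mice it was 0.259, 0.164 and 0.142 in resting against 1.70 and 1.86 in activated libraries. Thus *Gcnt1* exceeded *St3gal1* per length in all 4 libraries of “wannabes” from diseased or Treg-depleted mice and in none of the other 9. *St3gal1* itself was not called in any of the 4 group comparisons, with log2 fold changes from −0.10 to 0.34.

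**Figure D3:**
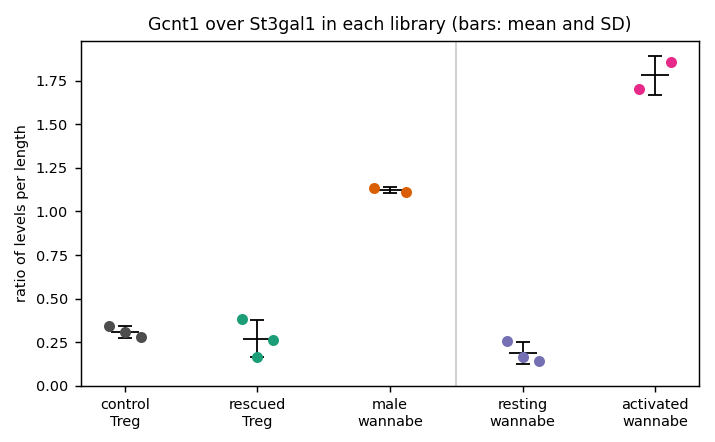
Ratio of the level of *Gcnt1* to that of *St3gal1*, each in CPM per kilobase of exons (y axis, from 0), with 1 point per library and the group mean and SD as bars. Group means were 0.308 and 0.270 in control and rescued Treg cells, 1.12 in male “wannabes”, 0.188 in resting and 1.78 in activated “wannabes”.

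Levels per length are given as TMM-scaled CPM per kilobase of the gene's merged exons in GENCODE. *Selplg* stood first in every group, with means from 277 in resting to 380.3 in male “wannabes”, and its lowest library exceeded every library of every other member. *Fut4* stood last in every group, at means from 0.052 to 0.225. Between them the order changed with the group.

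In control Treg cells *B4galt1* at 27.8 ± 1.94 and *St3gal4* at 23.3 ± 5.00 did not differ beyond their spread, and *Fut7* at 13.2 ± 4.75, *Gcnt1* at 5.97 ± 0.974 and *St3gal6* at 0.493 ± 0.23 followed (SD, n = 3). In rescued Treg cells *B4galt1* at 41.8 ± 13.3 and *Fut7* at 30.5 ± 6.53 overlapped, and *St3gal4* came after them at 17.5 ± 1.35 (SD, n = 3). *Gcnt1*, at 4.84 ± 1.84, again came below, and *St3gal6* overlapped with *Fut4*.

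Male “wannabes” placed *Fut7* second, at 50.9 ± 11.5, before *B4galt1* at 20.0 ± 1.08, *Gcnt1* at 17.2 ± 2.34 and *St3gal4* at 8.51 ± 1.72 (SD, n = 2), and no neighbours overlapped. In resting “wannabes” *Fut7* at 2.23 ± 0.618 and *Gcnt1* at 1.71 ± 0.472 stood below *B4galt1* at 44.9 ± 1.44, *St3gal4* at 13.8 ± 2.04 and *St3gal6* at 4.37 ± 1.69 (SD, n = 3), and *Fut7* and *Gcnt1* overlapped. In activated “wannabes” *Fut7* at 32.9 ± 3.26 came right after *B4galt1* at 43.3 ± 0.265, with *Gcnt1* at 15.4 ± 0.00883 and *St3gal4* at 14.0 ± 0.169 after it (SD, n = 2). With the longest transcript in place of merged exons, the order changed in 3 of 5 groups, in each by a swap of *St3gal4* or *Gcnt1* with a neighbour.

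**Figure D4:**
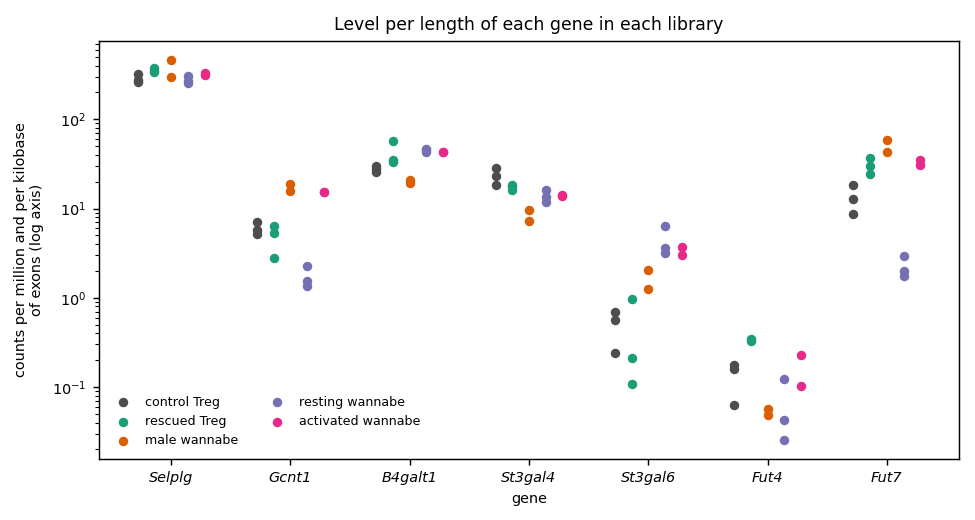
Level of each gene in CPM per kilobase of exons (y axis, logarithmic) in each library, coloured by group; rescued replicate 3 is at 0 for *Fut4* and is not drawn. *Selplg* lies at 258 or above in every library, and *Fut7* spans from 1.77 in a resting to 59.1 in a male “wannabe” library.

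Some members share sequence with other genes. *St3gal6* on chromosome 16 from 58468125 to 58524243 overlaps *Dcbld2* on the opposite strand over 1603 exonic bases, and *St3gal4* on chromosome 9 from 35046576 to 35119268 shares 412 exonic bases with *4930581F22Rik*, also on the opposite strand. The strand setting of the counting is not given in the sources used here, so reads there may be assigned to either gene. *Dcbld2* itself held at most 67.3 normalized counts in any library. *4930581F22Rik* was not called in any comparison but held between 1444 and 2671 normalized counts in each library. In male “wannabes” it had 2053 and 2671, where *St3gal4* had 932 and 699. The part of shared reads in the differences of *St3gal4* was not tested. The remaining members are *Selplg* on chromosome 5 from 113818536 to 113832644, *B4galt1* on chromosome 4 from 40804602 to 40854005 and *Fut4* on chromosome 9 from 14748320 to 14752393.

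The other genes of the pathway were described with a list of 76 covering other scaffolds, selectins, O-glycan start, branching, lactosamine extension, sialylation, fucosylation, sulfation and sugar nucleotide supply. In activated against resting “wannabes” 18 of 65 tested were called, 8 higher and 10 lower, beside 22.5% of all genes, 11.3% higher and 11.2% lower. Their median log2 fold change was −0.03 against −0.01 over all genes and 0.23 over the 7 members. *B4galt5*, another galactosyltransferase, had a log2 fold change of 1.52 (SE 0.14), from between 209 and 220.3 normalized counts to 628 and 599. *Galnt1*, which starts O-glycans, rose by 1.17, *Uap1*, an enzyme of UDP-sugar supply, by 0.65, and *Tpst1*, which sulfates tyrosines such as those of the *Selplg* product, by 0.61. None of *Galnt1*, *Uap1* and *Tpst1* was called without activated replicate 1 or without activated replicate 2, and *Tpst1* also lost its call without resting replicate 1 or 3. The values in those fits were 1.16 for *Galnt1* in both and lay between 0.60 and 0.69 for *Uap1* and between 0.45 and 0.75 for *Tpst1*.

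Among the pathway genes lower in activated “wannabes” was *Papss2*, which makes the sulfate donor, at −2.82 (SE 0.31). *Gcnt2*, a branching enzyme of another chain type, had 349, 322 and 117 normalized counts in resting and 1.89 and 21.96 in activated libraries. It passed the filter on low counts through the resting libraries, where the activated ones alone would have failed it, so no fold is given. *St6galnac3* and *St3gal3*, both sialyltransferases, fell by 1.67 and 1.43 on the log2 scale. *St3gal3* had 769, 771 and 605 in resting and 252 and 278 in activated libraries, so the groups did not overlap. Across the genes of this comparison given with a log2 fold change, edgeR's adjusted p lay between 0.000992 for *B4galt5* and 0.0301 for *Tpst1*.

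Between rescued and control Treg cells 0 of 67 pathway genes were called by edgeR, beside 2.3% of all genes. An unadjusted p under 0.05 was found for 17 of the 67 and for 2403 of all 14925 genes, and DESeq2 called 7 of 74 pathway genes and 1195 of 19666 genes. Their median log2 fold change was 0.04, against −0.03 over all genes and 0.31 over the members. In control Treg cells against male “wannabes” 11 of 67 were called, 8 higher and 3 lower, a share near the 16.2% of all genes, with medians of 0.20 for the pathway, 0.09 for all genes and −0.40 for the members. *St3gal5*, which makes a ganglioside, *Fut11*, a fucosyltransferase, *St8sia6*, a sialyltransferase, and *Glg1*, a ligand of E-selectin, were higher in control Treg cells by 1.65, 1.63, 1.61 and 1.52 on the log2 scale. *St6galnac4*, the Golgi GDP-fucose transporter *Slc35c1* and the sialoglycoprotein gene *Spn* were lower, at −0.87, −0.80 and −0.75.

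In those control Treg cells *Glg1* and *Fut11* kept their calls in every fit that left out a library, while each of the other 5 lost its call in at least 1. *St3gal5* lost it without control replicate 2 or 3, without male “wannabe” replicate 1 or without any rescued library. *St8sia6*, *St6galnac4*, *Slc35c1* and *Spn* lost it without male “wannabe” replicate 2, and further without control replicate 1 or 3 for *St6galnac4*, 3 for *Slc35c1* and 2 for *Spn*. The values where calls were lost lay between 1.11 and 1.68 for *St3gal5*, which reached 2.47 and stayed called without male “wannabe” replicate 2, at 1.40 for *St8sia6*, and between −0.83 and −0.55 for the other 3 genes.

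In rescued Treg cells against male “wannabes” 15 of 67 pathway genes were called, 12 higher and 3 lower, beside 14.1% of all genes, 10% higher and 4.06% lower, with medians of 0.23 for the pathway, 0.00 for all genes and −0.09 for the members. *Cmas*, which activates sialic acid for transfer, was higher by 2.78 on the log2 scale, with 3366, 1086 and 1083 normalized counts in rescued and 207 and 331 in “wannabe” libraries. Rescued replicate 1 stood apart, and without it the value was 2.01 and still called. *St3gal5* was higher by 2.59, or 3.405 without male “wannabe” replicate 2, *Fut11* by 2.57 and *Glg1* by 2.05. *Glg1* had 8261, 7546 and 7494 normalized counts in rescued and 1528 and 2217 in “wannabe” libraries. Lower were *St8sia1* at −1.01, *Slc35c1* at −0.75 and *St6galnac4* at −0.74, and all 3 lost their call in some fits: *St8sia1* without male “wannabe” replicate 1 or rescued replicate 2, the others without male “wannabe” replicate 2 or rescued replicate 1 or 2. Their values in those fits lay between −0.97 and −0.60. For the difference between the experiments 1 of 68 was called, beside 1.53% of all genes, namely *B4galt5* at −1.67 (edgeR adjusted p = 0.0471), with medians of 0.07 for the pathway, −0.03 for all genes and −0.42 for the members. That call was lost, at values between −1.71 and −1.50, without any one resting or activated library, control replicate 2 or 3 or rescued replicate 1 or 2.

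**Figure D5:**
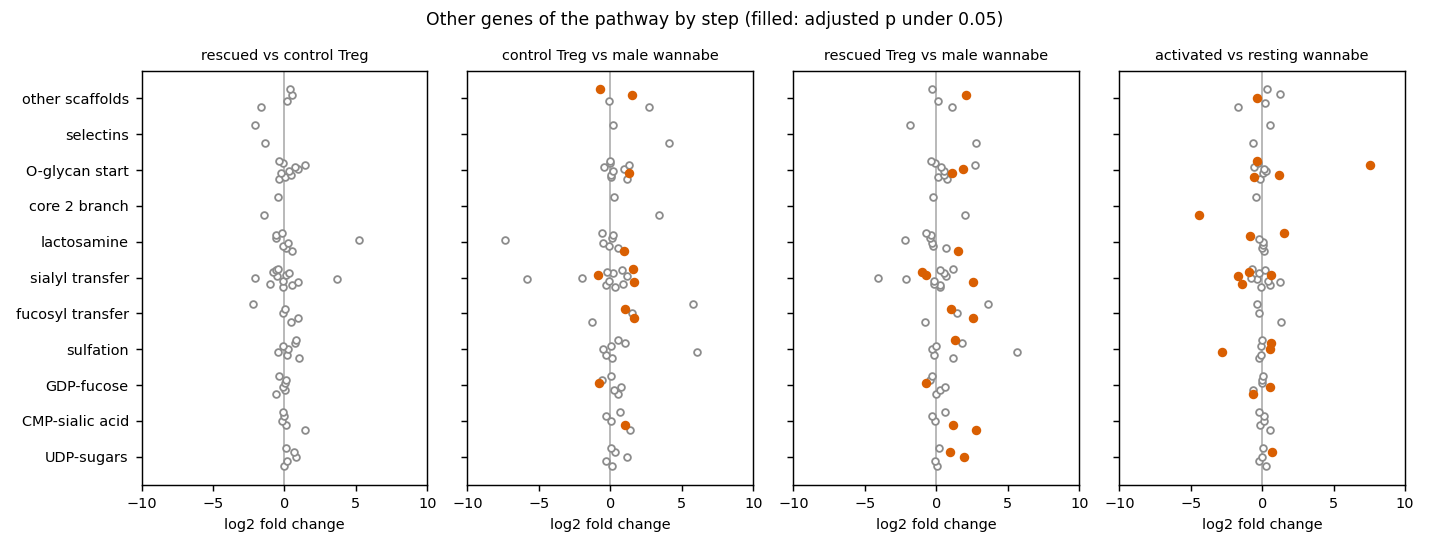
Log2 fold change (x axis) of the other pathway genes tested, by step (y axis), in the 4 comparisons, with 1 point per gene, filled where edgeR's adjusted p was under 0.05. Rescued against control Treg cells shows 0 filled points and activated against resting “wannabes” shows 18. The point farthest to the right is *Galnt3*, whose fitted value depends on the prior count because the resting libraries held at most 1.05 normalized counts, and it is no measure of size.

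*Galnt3*, which starts O-glycans and was named here after its values were seen, was at 1.05 normalized counts or below in all resting libraries and 84.1 and 94.5 in activated ones. It passed the filter on low counts through the activated libraries alone, so no fold is given. Its mean over the female libraries is too low for the rule by which the other pathway genes were named.

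The genes with a pattern most like each member were taken as the 3 with the highest Pearson correlation of log2 CPM over the 8 male libraries, among 10786 genes with a mean normalized count over 100. These libraries share 3 groups, so any gene that differs between the groups in like manner can correlate, and the values are descriptive. *Fut7* was most like *Sars2* (0.988), *Ccdc34* (0.981) and *D430020J02Rik* (0.976), and *Sars2* was among the top 3 in all 8 sets that left out a library. For *B4galt1* they were *Alkbh5* (0.996), *Micu2* (0.990) and *Hnrnpab* (0.989), and for *St3gal4* *Tgfbr1* (0.984), *Snx14* (0.981) and *Ascc3* (0.976). *Gcnt1* was most like *Gle1* (0.969), *Slc7a1* (0.960) and *Coa7* (0.959), and *Selplg* most like *Mrpl4* (0.958), *Tbc1d10c* (0.958) and *Ctsd* (0.956). *St3gal6* came closest to *Enoph1* (0.957), *Ccdc51* (0.953) and *A730017L22Rik* (0.927), and *Fut4*, with few counts, to *Hsd17b7* (0.949), *Ebag9* (0.894) and *Cutc* (0.888). Leaving out 1 library kept between 3 and 10 of these 21 pairs.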

How the data were processed

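RNA-seq libraries were assigned to groups by their labels, with columns named GFP and Thy1 tied to rescued Treg cells and male “wannabes” through the study's methods. The series' design text swaps the numbers of activated and resting libraries, and the titles were followed. The authors amplified RNA of doubly sorted cells with SMART-Seq v4, aligned reads to GRCm38 with STAR 2.7.3a, applied local realignment in GATK and made counts per gene in R. The deposited values are read counts without normalization. The gene annotation and strand setting are not given in the sources used here. Each table holds 24421 entries; 4 without a name, at most 0.00841% of counts, were left out. PCR reads carry no molecular identifiers.

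The members, the pathway and marker lists and the motifs were chosen with earlier results of these data known. Tests used edgeR 4.0.16 (R 4.3.3): TMM, filterByExpr and quasi-likelihood F tests, with Benjamini-Hochberg correction over every gene tested and calls below 0.05. One fit held the 8 male libraries, another the 5 female ones, and the difference between experiments used all 13. Standard errors are the log2 fold change divided by the root of F. Common biological variation (coefficient) came to 0.51 in male and 0.171 in female libraries. Named pathway genes are up to 4 called genes per direction with the largest change and a mean normalized count over 100. Coordinates and lengths come from GENCODE M21 on GRCm38, and log2 CPM used a prior count of 2. Alternatives were DESeq2 1.42.0, its size factors, other filters, the replicate block, a fit of the 2 groups compared and leaving out each library. The tests were checked on simulated data. Some genes are not reported here.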

Additional observations from a re-analysis of the deposited data

Results flagged for a closer look

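Of the 7 members and the 68 other pathway genes tested, 3 gave a change from control to rescued Treg cells that differed from the change from resting to activated “wannabes”, by a contrast tested with edgeR's quasi-likelihood test over all 13 libraries with Benjamini-Hochberg adjustment. They were 2 members and 1 pathway gene, beside 1.53% of all 15201 genes, and 1 of 68 is near that share. The difference of log2 changes was −3.45 for *Gcnt1* and −2.66 for *Fut7*, and it was −1.67 for *B4galt5*. *Gcnt1* and *Fut7* were called in all 13 fits that left out a library and *B4galt5* in 4 of 13. The experiments differ in sex, age, alleles and treatment, whose part was not tested.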

How the results depend on the processing

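Calls among the 7 members changed only when a library was left out. They numbered 0 to 1 for rescued against control Treg cells and 2 to 3 for activated against resting “wannabes”. Calls changed in both comparisons with male “wannabes” too, with 4 for rescued Treg cells without rescued replicate 2. No other alternative changed a member's call. A fit that leaves out a male or an activated “wannabe” library keeps 1 in that group and assumes that it varies like the others.

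For rescued against control Treg cells, DESeq2 called 1195 genes, no filter 612 and the fit of only these 2 groups 580, against 343, and leaving out a library gave 114 to 598. Pathway genes called there numbered 7 with DESeq2, 2 without a filter, 2 in the 2-group fit and 1 with a mean normalized count over 100, and 0 to 2 without a library. Control Treg cells against male “wannabes” gave 3751 genes with DESeq2 and 1549 to 2423 without a library, with 20 and 5 to 15 pathway genes. Rescued Treg cells against male “wannabes” gave 3316 with DESeq2. Leaving out a library gave 751 to 3215 genes and 6 to 22 pathway genes for activated against resting “wannabes”. For the difference between experiments, DESeq2 called 792 genes and 5 pathway genes, no filter 3 and a mean over 100 counts 2 pathway genes, and leaving out a library gave 44 to 430 and 0 to 5. The cause was not tested.

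The replicate numbers were not taken to pair the samples. Deviations of same-numbered libraries correlated at 0.044, 0.020 and 0.054 between control and rescued Treg cells, the only groups with 3 such pairs in the male mice. Against male “wannabes”, with 2 pairs each, they correlated at 0.08 and 0.238 for control and at 0.14 and −0.06 for rescued Treg cells, and between resting and activated “wannabes” at −0.08 and −0.035. With the number as a block 426 genes, 1 member and 1 pathway gene were called for rescued against control Treg cells and 0 pathway genes for the difference between experiments; the log2 fold change of *Fut4* turned to −0.27 in the former and that of *St3gal6* to −0.24 in the latter.

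Values that changed sign without a library had not been called. They ranged from −1.60 to 0.24 for *St3gal6* in rescued against control Treg cells, from −0.39 to 0.23 for *Selplg* in rescued Treg cells against “wannabes”, from −0.076 to 0.14 for *St3gal4* in activated against resting “wannabes”, and for the difference between experiments from −1.20 to 0.62 for *St3gal6* and from −1.49 to 0.069 for *Fut4*. Of the named pathway genes, *St3gal5* in control and *St6galnac4* in rescued Treg cells against “wannabes” were not called in the 2-group fit, and *Tpst1* in activated “wannabes” and the difference of *B4galt5* not with the block. The order per length changed in 3 groups with the longest transcript, and 3 to 10 of the 21 most alike pairs remained without a library. *Fut4* had between 0 and 49 reads in a library and *St3gal6* between 23 and 1132, and the part of counting error in their wide intervals was not tested.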

Other observations

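*Foxp3* itself, which a STOP cassette blocks in the “wannabes”, was 1.27-fold lower in activated than in resting “wannabes” (log2 fold change −0.35, SE 0.10, edgeR adjusted p = 0.0448). In rescued Treg cells it was 4.55-fold above control Treg cells, which carry another allele of the gene.

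*Tpst2*, the second tyrosine sulfotransferase, was named after its values were seen. Its mean normalized count was 11549 ± 1272 among rescued Treg libraries and 6524 ± 574 among control ones (SD, n = 3), with a log2 fold change of 0.82 that was not called (edgeR adjusted p = 0.0967). Against male “wannabes”, at 4562 ± 2242 (SD, n = 2), rescued Treg cells were higher by 1.34 on the log2 scale (edgeR adjusted p = 0.00659). Values from fits without a library are not given for *Tpst2*.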
